A study of Mus musculus with 3 samples.

Results

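The genes described here make, bind and break down retinoic acid, and their expression was measured in dendritic cells grown from mouse bone marrow (BMDC). They are Rdh10, Rdh11, Dhrs3, Aldh1a1, Aldh1a2, Aldh1a3, Crabp2, Cyp26a1 and Cyp26b1, 9 of the 19938 genes that had an array probe set naming them alone. The genes were chosen by name for their place in the pathway, and each of the 9 had a single such probe set. All 3 samples form 1 group. Per the labels, marrow cells of C57BL/6J mice were plated at 2000000 cells per well, kept for 9 days in 20 ng/ml GM-CSF and 20 ng/ml IL-4, and measured on 1 Affymetrix array each. No untreated culture, other genotype or other time was used here, so no level below can be set against cells without these cytokines. Whether separate mice or cultures were used is not in the labels, and the spread between samples may be technical.

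Retinoic acid is made from vitamin A in a pair of steps. Retinol dehydrogenases such as Rdh10 oxidise retinol to retinal, reductases such as Dhrs3 return retinal to retinol, and the retinaldehyde dehydrogenases Aldh1a1, Aldh1a2 and Aldh1a3 carry retinal on to retinoic acid, a step that is not reversed. Crabp2 takes retinoic acid to nuclear receptors, and the cytochromes P450 Cyp26a1 and Cyp26b1 oxidise it for removal. Dendritic cells of the gut and its lymph nodes are known for Aldh1a2 activity, through which they give T cells gut-homing receptors and favour regulatory T cells, and GM-CSF and IL-4 are both known to induce the enzyme in dendritic cells.

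The start regions of a pair of these genes are shown for the letters of the retinoic acid response element, since Cyp26a1 is a textbook target of retinoic acid and Aldh1a2 is the gene of the 9 with the widest span between the arrays. Both are from RefSeq (GRCm38.p6, plus strand) and cover the 250 bases before a listed transcription start, chr9:71215539-71215788 for Aldh1a2 and chr19:37697558-37697807 for Cyp26a1. The capitals mark a DR5 element, a pair of receptor half-sites that run in the same direction with 5 bases between them.
Aldh1a2: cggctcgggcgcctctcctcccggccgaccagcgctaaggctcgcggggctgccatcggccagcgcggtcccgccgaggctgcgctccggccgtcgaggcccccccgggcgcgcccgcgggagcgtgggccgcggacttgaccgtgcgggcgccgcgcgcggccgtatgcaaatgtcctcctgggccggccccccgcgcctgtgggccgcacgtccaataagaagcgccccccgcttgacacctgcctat
Cyp26a1: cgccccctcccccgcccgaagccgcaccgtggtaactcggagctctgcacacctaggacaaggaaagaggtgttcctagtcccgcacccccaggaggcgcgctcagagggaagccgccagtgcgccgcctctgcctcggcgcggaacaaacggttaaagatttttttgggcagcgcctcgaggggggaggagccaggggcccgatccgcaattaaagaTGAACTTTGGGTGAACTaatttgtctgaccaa
The search covered both strands of windows running to 50 bases after the start, of which the table held 32851 for all genes and 10 for 6 of the 9 genes, with overlapping windows for Dhrs3. The DR5 element was in 0.0974% of all windows and, among those of the 6 genes, in that of Cyp26a1, on the minus strand at positions -32 to -16 from the listed start. The DR1 and DR2 elements, with 1 and 2 bases between the half-sites, were in 0.222% and 0.268% of all windows and in none of the 10. The letters TTCNNNNGAA, which STAT6 can bind, were in 6.95% of all windows and, among the 6 genes, in those of Dhrs3, where 2 overlapping windows held the same site, TTCTGGAGAA. The letters TTCNNNGAA, which STAT5 can bind, were in 8.3% of all windows and in none of the 10. The window of Aldh1a2, with 77.6% G and C in the stretch printed, held none of these letters. A match is a description of the letters only.

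Values are log2 expression as deposited. The background was taken from 1210 probe sets for olfactory and vomeronasal receptors, genes of sensory neurons taken here as mostly silent. A gene counts as above background here if all 3 arrays gave it a value over the 95th percentile of these probe sets. These limits were 5.54, 5.54 and 5.55. Probe sets bind with different strength, so a value is read against this limit and against the same probe set in the other arrays, never against another gene's. With 1 group there is no contrast to test, and no p-value is given. By these calls the cells had transcripts for steps on either side of retinal, with 1 of the 3 retinoic acid forming enzymes above background. Of the 9 genes, 6 were above background, beside 60.5% of all 19938 genes. The genes below the limit were Aldh1a1, Aldh1a3 and Cyp26a1. Of the 48 measured genes of other tissues, such as liver and muscle, 16 passed the same limit, so a value just over it is weak evidence of a transcript.

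**Figure D1:**
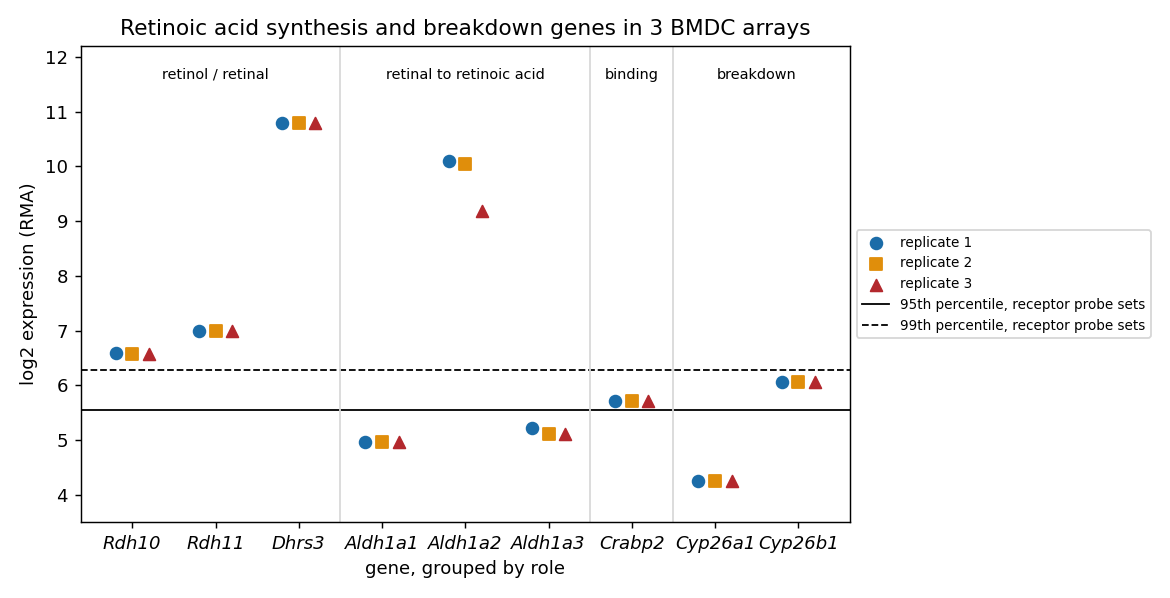
Log2 expression of the 9 genes (horizontal axis, grouped by role) in the 3 BMDC arrays, 1 symbol per array, with the limits from receptor probe sets averaged over arrays as lines. Aldh1a2 and Dhrs3 lie far above both limits, Crabp2 and Cyp26b1 lie between the limits, and Aldh1a2 in replicate 3 is the 1 point that stands clearly apart from the other arrays of its gene.

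Rdh10, which oxidises retinol, and Rdh11 were detected at modest values. Rdh10, the enzyme needed for most retinal formation in the embryo, had 6.58, 6.57 and 6.57 in replicates 1, 2 and 3. Rdh11, which interconverts retinol and retinal, had 6.99 in each array. Rdh10 lay at least 1.02 log2 units above the array's limit and Rdh11 at least 1.43. Both also passed a stricter limit, the 99th percentile of those probe sets, Rdh10 by 0.24. Of the 48 genes of other tissues, 4 passed this limit as well, so a narrow margin over it is weak evidence too.

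Dhrs3, which reduces retinal to retinol and so works against the synthesis, was well above background. It had 10.78 in each array, at least 5.23 units above the limit. All digits of the 3 values were the same, so they carry no measure of error.

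Of the retinaldehyde dehydrogenases, Aldh1a2 was the detected member. It had 10.10, 10.05 and 9.18 in replicates 1, 2 and 3 (9.78 ± 0.52, SD, n = 3), which is 3.63 units or more above the limit in every array. Replicates 1 and 2 lay close together and replicate 3 lay apart, 0.92 units below replicate 1 and 0.87 below replicate 2, that is 1.89-fold and 1.82-fold. Aldh1a1, the family member of liver and many epithelia, had 4.97 in each array, under the limit with margins of -0.57, -0.57 and -0.58. Aldh1a3 had 5.23, 5.11 and 5.11, under the limit with margins of -0.31, -0.42 and -0.44. Detection of Aldh1a2 and not of the other two thus held in each array.

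Crabp2, the carrier, had 5.71 in each array, 0.16 units above the highest of the 3 limits. The breakdown enzymes were split by the limit. Cyp26b1 had 6.06 in each array, 0.51 to 0.52 units above it. Cyp26a1, whose start region holds the capital letters shown above, had 4.25 in each array and lay below the limit, with margins of -1.29, -1.29 and -1.30. Neither Crabp2 nor Cyp26b1 passed the 99th percentile limit (6.28, 6.24 and 6.33), under which 4 of the 9 genes, Aldh1a2, Dhrs3, Rdh10 and Rdh11, were above background, beside 46.2% of all genes. A limit from the genes of other tissues, 6.37 in each array, left 4 genes too, beside 45.5%.

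Identical values were common in this group and limit what its spread can say. In 6 of the 9 genes the 3 values were identical, and in 2 more, Rdh10 and Aldh1a3, replicates 2 and 3 were. Over all genes the 3 values were identical in 57.1%, so agreement between arrays is no sign of steady expression. The median span between the highest and the lowest array was 0 for the 9 genes and 0.0096 over the 12068 genes above background.

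Aldh1a2 was the 1 gene of the 9 to span more than 0.5 log2 units. Of the genes above background, 2.61% did, and 79 (0.655%) spanned as much as Aldh1a2 or more. Each array's mean over 10 housekeeping genes was then subtracted. This mean spanned 0.042 between the arrays, and Eef1a1, the widest of the 10 genes, spanned 0.35 (12.83, 12.70 and 12.48). After the subtraction Aldh1a2 deviated by 0.30, 0.27 and -0.57 from its mean and spanned 0.87. Without replicate 3 its span was 0.048, so the difference rests on that array.

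Several gene lists were low in the same array, and their part in the value of Aldh1a2 was not tested. In bulk RNA, fewer cells of a type and less RNA per cell cannot be told apart. Over the 10 T cell genes above background, of 11 measured, the mean deviation was 0.30, 0.03 and -0.33 in replicates 1, 2 and 3, and 9 of the 10 were lowest in replicate 3. The summed linear value of the 11 was 2465, 1937 and 1366, and 7 of them spanned over 0.5. Over the 7 NK cell genes above background, of 10 measured, the deviation was 0.37, 0.14 and -0.51, and all 7 were lowest in replicate 3. The summed value of the 10 was 5488, 4298 and 2507. The NK receptor genes Ncr1, Klrd1 and Klrk1 lay below background in every array, while Klrb1c, another NK receptor gene, was above it (6.51, 6.45 and 5.94). Of the 10, 5 spanned over 0.5. Il2rb, the widest of them and a cytokine receptor chain of lymphocytes, had 9.81, 9.47 and 8.42, lowest in replicate 3 as Aldh1a2 was.

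The cell cycle list and the mast cell and basophil list were lowest in the same array. Of 15 cell cycle genes, all above background, 14 were lowest in replicate 3, with a mean deviation of 0.31, 0.08 and -0.39 and a summed value of 5254, 4767 and 4229. Of the 15, 10 spanned over 0.5. Mki67, which marks dividing cells and was named after its values were seen, had 8.50, 8.18 and 7.38. Of 10 mast cell and basophil genes, 4 were above background, 3 of these were lowest in replicate 3 and the fourth was identical in the arrays, with a mean deviation of 0.17, 0.30 and -0.46. The summed value of the 10 was 811, 919 and 424, and 6 of the 10 spanned over 0.5. Prss34, a basophil protease, had 7.75, 8.24 and 6.38, high in replicates 1 and 2 and low in 3 as Aldh1a2 was. Fcer1a, Ms4a2, Mcpt4 and Cma1 lay below background in every array. Cpa3 (7.38, 7.54 and 5.38) and Mcpt8 (5.88, 5.97 and 4.68) fell below background in replicate 3 alone, so the list's mean deviation leaves them out. Of 12 neutrophil genes 5 were above background, with a mean deviation of 0.02, 0.07 and -0.08. The summed value of the 12 was 1004, 854 and 543, and 4 of them spanned over 0.5. These were Lcn2 (7.98, 6.69 and 5.12), Ly6g (6.73, 6.80 and 4.86), Retnlg (7.35, 7.11 and 5.55) and Cxcr2 (6.17, 6.27 and 5.42). Each fell under the limit in replicate 3 alone, so the mean deviation leaves them out. Smaller shifts of the same direction were seen in the eosinophil list (2 of 5 above background, mean deviation 0.15, 0.07 and -0.23, both lowest in replicate 3) and the endothelial list (5 of 8 above, deviation 0.08, 0.03 and -0.11, with 4 of 4 differing genes lowest there). Of the B cell list 3 of 7 were above background, with deviations of 0.02, 0.02 and -0.04, and of the erythroid list 3 of 5, with deviations of -0.0011, -0.02 and 0.02. These counts stand beside the 60.5% of all genes above background. Over all genes above background with differing values, 37.8% were lowest in replicate 3, so the array was the lowest more often than replicate 1 (24.5%) or replicate 2 (9.12%).

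The dendritic cell markers did not share this shift in their mean. Of 12 such genes 9 were above background, beside 60.5% of all genes. Among the 9 were Itgax (CD11c) at 11.91, 11.92 and 11.91, H2-Aa at 12.57 in each array and H2-Ab1 at 12.31, 12.36 and 12.42. Flt3, Xcr1 and Cd209a lay below background. The list's mean deviation was -0.03, 0.04 and -0.01. Among the 6 genes with differing values, 1 was lowest in replicate 3. That gene was Ccr7, the receptor that leads mature dendritic cells to lymph nodes, with 10.15, 10.50 and 9.74. Clec9a (9.27, 9.38 and 9.70, named after its values were seen), H2-Ab1 and Ciita were highest in replicate 3, so the mean averages opposite shifts. H2-Aa, Cd74 and Zbtb46 had identical values in the arrays and cannot show whether their expression was steady. Macrophage markers, 9 of 11 above background, deviated by 0.11, -0.0045 and -0.10, and 5 of the 9 were lowest in replicate 3.

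**Figure D2:**
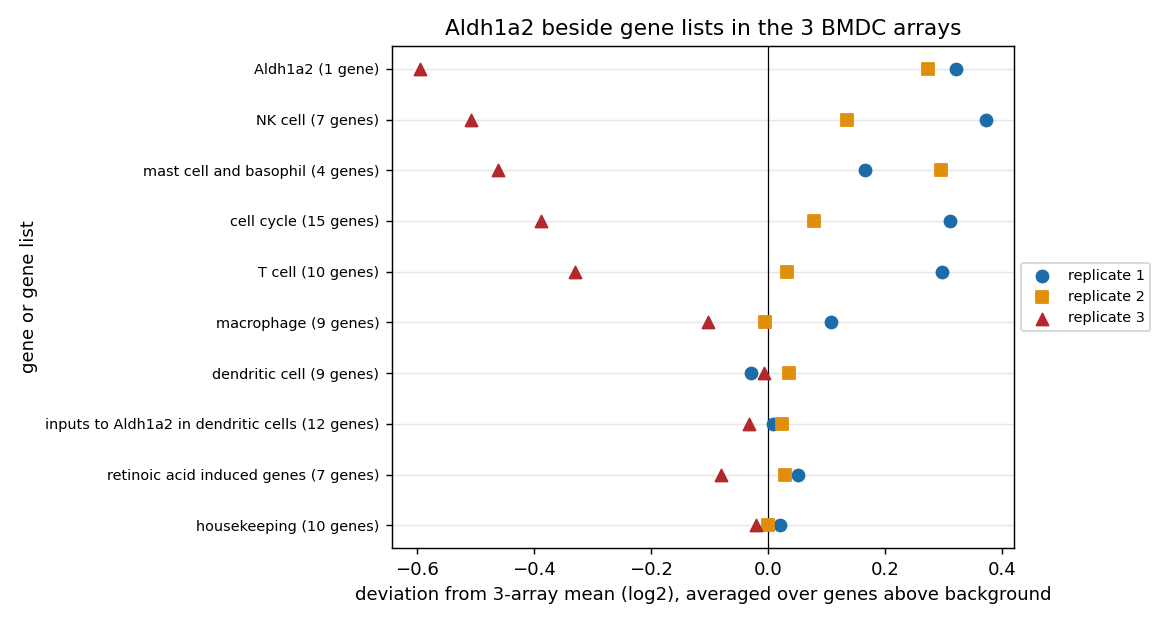
Deviation from the 3-array mean in log2 units (horizontal axis), 1 symbol per array. Shown are Aldh1a2 and, for each gene list (vertical axis), the average over its genes above background. Genes that fell under the limit in replicate 3, such as Cpa3 and Mcpt8, are not in these averages. Replicate 3 lies at -0.59 for Aldh1a2 and between -0.51 and -0.33 for the NK cell, mast cell and basophil, cell cycle and T cell lists, and near 0 for the dendritic cell, input and housekeeping lists.

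The 3 genes whose deviations lay nearest to those of Aldh1a2, by Euclidean distance over the 3 arrays among 12067 other genes above background, were Klk1b11, Kif18b and Ccr2. Klk1b11, a kallikrein-related peptidase gene, had 10.65, 10.69 and 9.78 (distance 0.059). Kif18b, a kinesin of the mitotic spindle, had 7.07, 6.96 and 6.18 (distance 0.062). Ccr2, the chemokine receptor of monocytes, had 7.35, 7.39 and 6.45 (distance 0.067). With 3 arrays such a likeness is a description of 3 numbers.

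**Figure D3:**
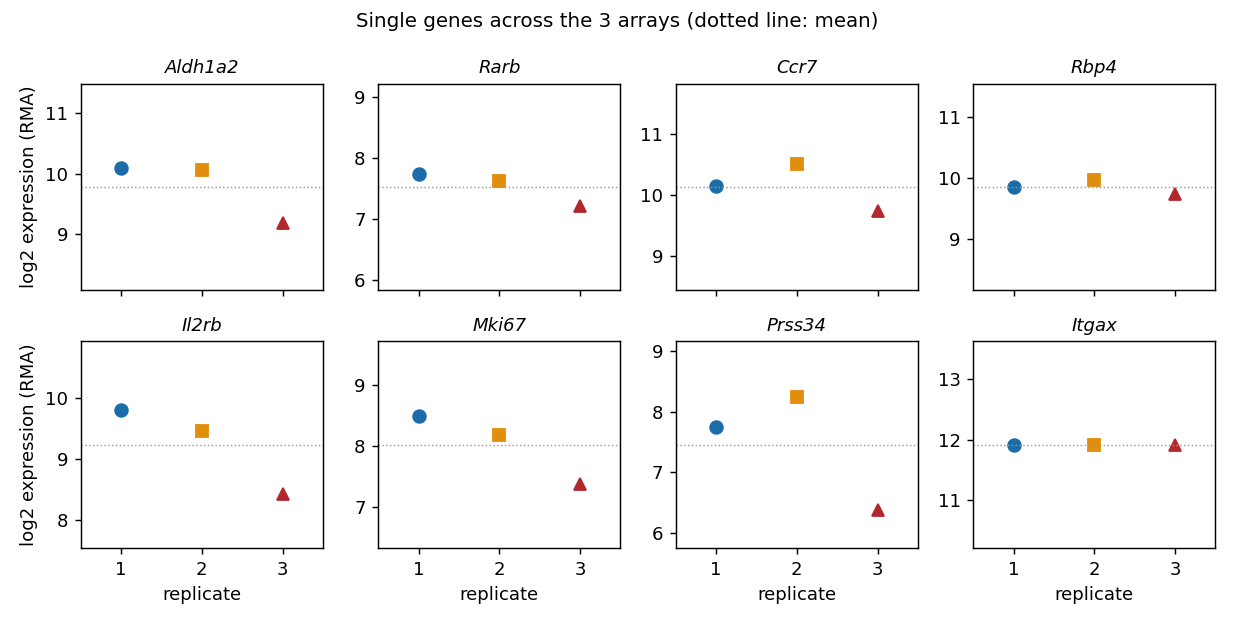
Log2 expression of 8 genes in the 3 arrays, with the mean as a dotted line and each vertical axis spanning the same number of log2 units around it. Aldh1a2, Il2rb, Mki67 and Prss34 are lowest in replicate 3, Rarb and Ccr7 are lowest there by less, and Rbp4 and Itgax differ little.

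Aldh1a3 and Rdh10, the other genes of the 9 with differing values, were set apart by replicate 1 and by little. Aldh1a3 was 0.11 units higher in replicate 1 than in the other two arrays and Rdh10 0.015 units higher. In that array the stromal genes Dcn (8.12, 5.36 and 5.41), Sparc (7.64, 5.34 and 5.78), Bgn (8.19, 5.33 and 5.31) and Lox (7.58, 4.47 and 4.63) were high. Thy1, also on the stromal list and a T cell gene too, was set apart by a low replicate 3 instead (8.27, 7.98 and 7.19), and the other 9 of the 14 stromal genes spanned less than 0.5. The summed linear value of all 14 was 1814, 893 and 809. The 6 that were above background in all 3 arrays do not include Dcn, Sparc, Bgn or Lox. These 6 deviated on average by 0.14, -0.01 and -0.13, about as low in replicate 3 as high in replicate 1. Thy1, 1 of them, spanned 1.09 and the rest 0.25 or less, so the low replicate 3 of the average rests mostly on Thy1. The part of stromal cells in the values of Aldh1a3 and Rdh10 was not tested, and Aldh1a3 stayed below the limit in replicate 1.

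Further genes were taken from 7 lists with 67 measured genes outside the 9. Most of the lists are of retinoid pathway genes, and the last described below hold inputs to Aldh1a2 and genes linked to mucosal dendritic cells. Of the 67 genes 41 were above background, a share close to the 60.5% of all genes, and the lists differed in their counts. The 41 include genes outside the retinoid pathway. Of 12 genes of retinoid uptake, carriage and storage, 5 were above background. Rbp4, the retinol carrier that liver sends into blood, had 9.86, 9.97 and 9.74, and Stra6l, a receptor for it, 7.73 in each array. Stra6, the other such receptor, had 6.02 in each array and did not pass the stricter limit, Dgat1, which esterifies retinol among other substrates, had 7.99, 7.94 and 7.89, and Scarb1, a carotenoid receptor, was above background too. Lrat, the main retinol esterifying enzyme, lay below background, as did the carriers Rbp2 (4.63), Rbp7 and Ttr, Rpe65, and the carotene cleaving enzymes Bco1 and Bco2.

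Of 17 further retinol and retinal dehydrogenases, 5 were above background, and 3 at the stricter limit, beside 60.5% and 46.2% of all genes. Rdh13, a mitochondrial retinal reductase, had 7.74 in each array, Dhrs4, a retinal reductase, 7.59, 7.53 and 7.43, and Dhrs9, a retinol dehydrogenase named after its values were seen, 8.74, 8.55 and 8.66. Rdh1 (5.70) and Rdh14 (6.02) passed the first limit alone. The alcohol dehydrogenases Adh1, Adh4 and Adh7, which oxidise retinol in liver and epithelia, lay below background, as did Rdh5 (5.32), Rdh7 (4.24) and Rdh9 (5.10). The clearance and binding genes outside the 9 were all 3 above background, beside the same 60.5%. Fabp5, which can carry retinoic acid to the receptor PPAR delta, had 11.79, 11.80 and 11.72, Crabp1 had 6.44 in each array, and Cyp26c1, the remaining member of the Cyp26 family, had 5.78, 5.78 and 5.74 and did not pass the stricter limit.

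In the list of retinoic acid receptors and coregulators, 10 of 11 genes were above background at either limit, beside 60.5% and 46.2% of all genes. The 11 include Ppard and the coregulators Ncoa1, Ncoa2, Ncoa3 and Nrip1. Rara had 6.97, 7.11 and 7.11, Rarg 6.72 in each array and Rxra, their partner, 8.41, 8.41 and 8.28, whereas Rxrg lay at 4.63. Rarb, which is both a receptor and a classical retinoic acid induced gene, had 7.73, 7.62 and 7.21, a span of 0.52 with replicate 3 lowest.

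Of 9 measured genes that retinoic acid is known to induce in some cells, 7 were above background, beside 60.5% of all genes. At the stricter limit 6 were, beside 46.2%. Tgm2, a transglutaminase, had 12.69 in each array, while Stra8, a germ cell gene, lay at 3.58 and Rarres1 at 5.31, 5.31 and 4.94, both below background. Of the 7, 2 were not identical in the arrays, Rarb and Cebpe (7.56, 7.51 and 7.16, named after its values were seen), and both were lowest in replicate 3. Other signals induce these genes too, so their detection does not measure retinoic acid.

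All 12 measured genes of the list of inputs known to act on Aldh1a2 in dendritic cells were above background, beside 60.5% of all genes. At the stricter limit 11 were, without Tlr2, beside 46.2%. The GM-CSF receptor chains Csf2ra and Csf2rb had 10.70, 10.66 and 10.52 and 11.94, 12.00 and 12.00, the IL-4 receptor chain Il4ra 9.87, 9.86 and 9.85, and Stat5a, which carries the GM-CSF signal, 7.94, 7.95 and 7.84. The list deviated by 0.01, 0.02 and -0.03 in replicates 1, 2 and 3, and Aldh1a2 by -0.59 in replicate 3. Among the 9 input genes with differing values, 6 were lowest in replicate 3, beside 37.8% over all such genes above background. The part of these genes in the value of Aldh1a2 was not tested. Of 6 genes linked to mucosal dendritic cells, 2 were above background, Tgfb1 (10.94, 10.94 and 10.84) and Ccr7. Itgae, the CD103 integrin chain of gut dendritic cells, lay below it at 5.12, 5.12 and 5.09, as did Itgb8, which activates TGF-beta, at 5.39.

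**Figure D4:**
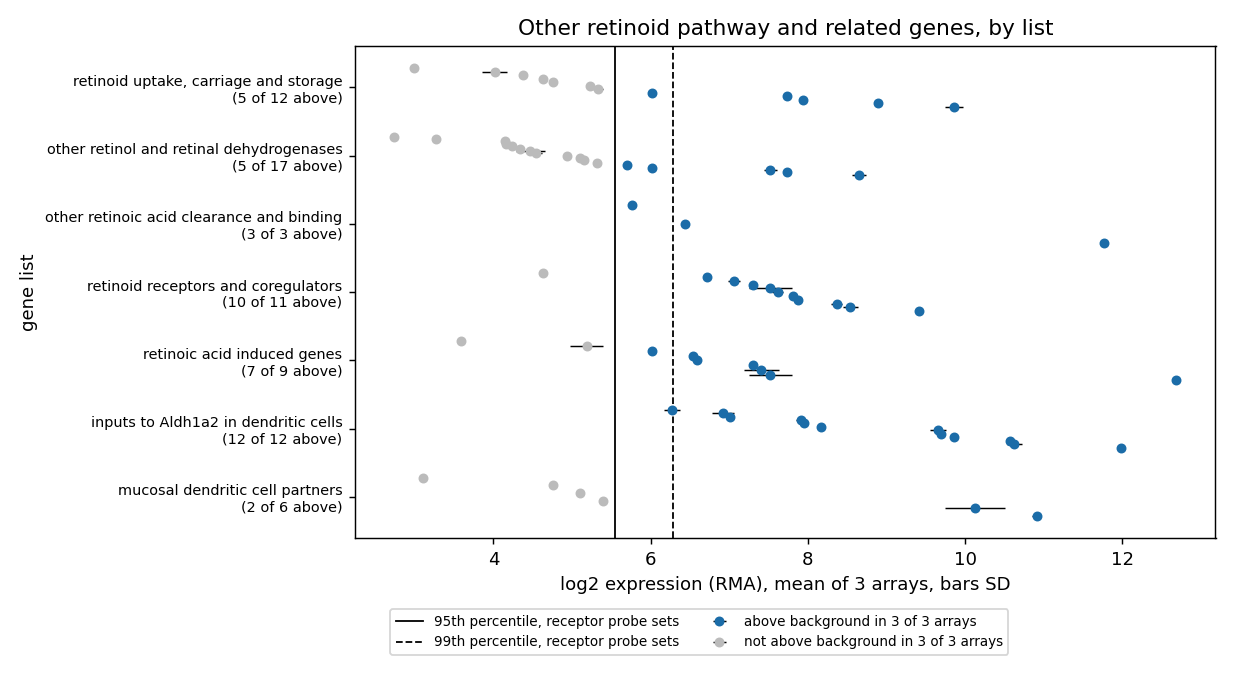
Mean log2 expression over the 3 arrays (horizontal axis, bars SD) of the measured genes of 7 lists (vertical axis), blue where above background in 3 of 3 arrays, with the limits from receptor probe sets as lines. The receptor and input lists lie almost wholly to the right of the limits, with 10 of 11 and 12 of 12 genes above background, and most of the dehydrogenases lie to the left, with 5 of 17 above.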

How the data were processed

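RNA of 3 BMDC samples (150 ng each) was measured on Affymetrix whole-transcript arrays. The authors deposited log2 expression values, and the submitters' processing notes name RMA. This method corrects background, quantile normalizes arrays and summarizes probes by median polish, which can give identical values in several arrays. Its software and version and the genome build are not given in the sources used here. Array medians were 5.91, 5.91 and 5.91. Of 35556 probe sets, the platform annotation pairs 21789 with 1 gene and 1621 with several, which were not used, and does not list 12146. Of the 21789, 21698 were matched to RefSeq by Entrez identifier, which changed 0 symbols. Each gene took its probe set with the highest mean.

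Calls, spans and list counts were computed with pandas 2.3.3 and numpy 2.4.6 and tested on simulated data. Named with values were the 9 genes, and of each pathway list the first 4 measured, up to 4 members called against most of their list and those spanning over 0.5. The rule for marker lists was the first 3 measured and those spanning over 0.5. Of these lists only examples are printed, beside the list's counts, and the examples were picked with their values known. The genes and lists were chosen with earlier results of these data known. Alternatives covered the limit, the call on the mean, the probe set rule, housekeeping scaling and each array left out. The number of arrays limits the precision.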

Additional observations from a re-analysis of the deposited data

Results flagged for a closer look

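A probe set outside the values used, because it names both Pwwp3a and Rdh11, had a signal of 5.60 in each array, just over the background limits of 5.54 to 5.55. Which of these genes it measured cannot be told from the value.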

How the results depend on the processing

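The number of the 9 genes above background was 6 with the call on the mean, with either other probe set rule and without any 1 array, and 4 under both stricter limits. Crabp2 and Cyp26b1 changed sides: their lowest margin was -0.62 and -0.27 at the 99th percentile limit and -0.66 and -0.31 at the limit from genes of other tissues. The 41 further pathway genes above background became 36 under either of these limits. The span of Aldh1a2 ranged from 0.048 to 0.92 on leaving out 1 array, and the number of the 9 genes spanning over 0.5 from 0 to 1, with both lowest values without replicate 3. Each of the 9 genes has 1 probe set of its own, so the probe set rule could not change its values. No paired analysis was possible because there is 1 group.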
